A study of Mus musculus with 6 samples.

Results

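A set of 10 genes of the glucocorticoid response was followed in the mouse heart: the receptor gene Nr3c1 and 9 genes known to respond to it, Zbtb16, Fkbp5, Sgk1, Tsc22d3, Klf9, Fam107a, Cebpd, Mt1 and Mt2. They were taken by name, and all 10 were found among the 23808 genes of the deposited table. mRNA was sequenced from hearts of wild-type (WT) female mice that received a high-fat diet (HFD) from 4 to 12 weeks of age, in 3 libraries, or normal chow (NC) over the same weeks, in 3 libraries. Neither the strain nor the make-up of the diets is given in the labels, and they do not state whether each library is a different animal, so errors and p-values measure the spread between libraries, which may be technical. The set was selected on known roles with FPKM differences between these same diets in view, FPKM being the unit of expression in the table, so member differences are a description with no test and support nothing.

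The glucocorticoid receptor is a nuclear receptor that rests in the cytoplasm in a complex with Hsp90 chaperones. It binds corticosterone, the main glucocorticoid of mice, enters the nucleus and binds DNA at short palindromic sites called glucocorticoid response elements. Corticosterone is secreted by the adrenal gland with a daily rhythm and under stress, and in heart muscle the receptor acts on metabolism, on contraction and on inflammatory genes. Some targets feed back on the receptor, others are kinases, transcription factors or metal-binding proteins.

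Promoters are shown for 4 members because their windows hold a sequence that resembles a binding site, and because the measured values of these genes are set out below. RefSeq promoter windows of the GRCm38.p6 build were used, running from 250 bases before a transcription start to 50 bases after it. The search covered 7 of the 10 members, in 16 windows. No window was found for Zbtb16 and Cebpd, and Nr3c1 windows are not reported here. Searched on both strands were the full glucocorticoid element (AGAACA, 3 bases of any kind, TGTTCT), its core inside that element (GNACA, 3 bases of any kind, TGTNC, with N any base) and the metal response element core TGCACNC or TGCGCNC, to which the zinc sensor MTF1 binds. Capitals mark matches to any of these. The glucocorticoid half-site AGAACA was also searched and is not marked on its own. It was present in 19% of all windows, among them windows of Sgk1, Fam107a and Tsc22d3. Matches describe the letters and do not show binding. The Sgk1 window is chr10:21993640-21993939 on the plus strand, at one of 6 Sgk1 starts in the table. The Fam107a window is chr14:8309730-8310029 on the minus strand, the Mt1 window chr8:94178839-94179138 and the Mt2 window chr8:94172368-94172667, both on the plus strand.
Sgk1: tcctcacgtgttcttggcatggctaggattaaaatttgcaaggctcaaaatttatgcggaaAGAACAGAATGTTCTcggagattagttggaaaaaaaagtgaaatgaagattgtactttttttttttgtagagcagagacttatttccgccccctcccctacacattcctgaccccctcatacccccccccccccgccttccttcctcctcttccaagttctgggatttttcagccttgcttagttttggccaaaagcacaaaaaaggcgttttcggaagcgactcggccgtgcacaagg
Fam107a: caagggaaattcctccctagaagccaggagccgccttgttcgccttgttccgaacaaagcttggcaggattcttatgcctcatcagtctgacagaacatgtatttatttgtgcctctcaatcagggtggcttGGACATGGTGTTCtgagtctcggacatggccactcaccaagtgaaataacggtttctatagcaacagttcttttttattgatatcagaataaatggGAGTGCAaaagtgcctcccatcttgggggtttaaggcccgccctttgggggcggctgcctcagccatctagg
Mt1: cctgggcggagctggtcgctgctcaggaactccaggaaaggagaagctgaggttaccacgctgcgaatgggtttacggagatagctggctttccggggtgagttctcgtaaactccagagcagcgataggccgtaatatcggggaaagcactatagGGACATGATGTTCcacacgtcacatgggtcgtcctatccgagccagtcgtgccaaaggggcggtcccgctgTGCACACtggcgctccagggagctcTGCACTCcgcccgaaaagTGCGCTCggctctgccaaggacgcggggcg
Mt2: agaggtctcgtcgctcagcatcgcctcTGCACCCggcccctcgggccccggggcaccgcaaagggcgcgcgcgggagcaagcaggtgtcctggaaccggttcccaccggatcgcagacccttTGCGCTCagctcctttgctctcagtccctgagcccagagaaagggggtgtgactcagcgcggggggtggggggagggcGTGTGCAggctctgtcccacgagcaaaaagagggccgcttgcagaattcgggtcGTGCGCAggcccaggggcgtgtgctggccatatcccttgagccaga

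The Sgk1 window held the full element, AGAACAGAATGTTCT, from base -189 to base -175 counted from the start, a match present in 3 of all 32851 promoter windows (0.00913%). The core was present in 156 windows (0.475%), among them those of Mt1, as GGACATGATGTTC from -94 to -82, and of Fam107a, as GGACATGGTGTTC from -118 to -106. A second Fam107a start lies 2 bases away and its window holds the same match. The window of another Fam107a start, chr14:8317558-8317857, held none of the searched elements. No core match was in the windows of Fkbp5, Klf9, Tsc22d3 and Mt2, nor at the other Sgk1 starts. Metal response cores were found 4 times in the Mt2 window and 3 times in the Mt1 window. The Fam107a window shown, that of the start 2 bases away and 1 other Sgk1 window each held 1. At least 1 was present in 25.7% of all windows, at least 3 in 1.97% and at least 4 in 0.517%.

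FPKM counts fragments by gene length and by library size, so levels can be compared between genes. Depth is unknown. Differences are HFD minus NC on the log2(FPKM + 1) scale, with the standard error (SE) from limma fitted across the 11456 genes whose mean reached 1 FPKM, all 10 members included. In HFD 1, 4 mitochondrial genes and Gm28661, all at 2516 FPKM or more in the other libraries, were listed at 0, and its summed FPKM was 576334 against 687877 to 739406 in the other libraries. The heart label held: all 9 cardiomyocyte markers were detected in every library, at a summed 17774 to 22065 FPKM on HFD and 21992 to 25299 FPKM on NC. Atrial markers differed widely within each diet, at a summed 446 to 7132 FPKM on HFD and 359 to 13952 FPKM on NC, as did adipocyte markers, at 1.11 to 55.9 FPKM on HFD and 3.74 to 67.3 FPKM on NC. Among macrophage markers 0 of 6 tested genes were above 0 and 6 below, beside 46.9% of all tested genes above 0. Differences ran from -0.62 for C1qb to -0.014 for Adgre1. All 7 markers summed to 69.0, 99.3 and 79.2 FPKM in HFD 1 to 3 and to 132, 103 and 136 FPKM in NC 1 to 3, without overlap. Fibroblast markers were below 0 in 7 of 8, at a summed 269 to 544 FPKM on HFD and 349 to 637 FPKM on NC. Ventricular markers were below 0 in 4 of 4, cardiomyocyte markers in 7 of 9 and smooth muscle and pericyte markers in 6 of 7. Endothelial markers were above 0 in 6 of 7 and erythroid markers in 5 of 5. The part of these cells in the member values was not tested. Structural RNAs summed to 543, 1552 and 2338 FPKM in HFD 1 to 3 and to 707, 659 and 1635 FPKM in NC 1 to 3. In whole heart, fewer cells of a type and less RNA per cell cannot be told apart.

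Levels of the members spanned a wide range. Averaged over the 6 libraries, Mt1 was at 333 FPKM, rank 195 of the 11456 tested genes, followed by Tsc22d3 at 67.0, Sgk1 at 38.8 and Mt2 at 33.5 FPKM. Klf9 at 7.73, Nr3c1 at 6.94, Cebpd at 5.58, Fkbp5 at 3.67, Zbtb16 at 3.14 and Fam107a at 2.59 FPKM were the lower group. Mt1 stood above every other member in every library, and all 6 values of Mt2 were above all 6 of Klf9. Library ranges of Tsc22d3, Sgk1 and Mt2 overlapped from neighbour to neighbour, as did those of each neighbouring pair from Klf9 to Fam107a.

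Nr3c1, which encodes the receptor itself, was at 7.63, 5.90 and 9.41 FPKM in HFD libraries 1 to 3 and at 8.01, 6.28 and 4.39 FPKM in NC libraries 1 to 3. The diets overlapped, with HFD 2 below NC 1 and NC 2. Nr3c1 averaged 7.65 ± 1.76 FPKM on HFD and 6.23 ± 1.81 FPKM on NC (SD, n = 3 each), a difference of 0.27 (SE 0.26) that was 0.074 without NC 3 and 0.126 without HFD 3.

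In 9 of the 10 members the difference was above 0, as in 46.9% of all tested genes, and the median difference was 0.55 over the members and -0.019 over all tested genes. In 4 targets the HFD libraries stood apart, with all 3 HFD values above all 3 NC values: Zbtb16, Fkbp5, Fam107a and Sgk1. HFD lay wholly above NC in 3.25% of all tested genes and wholly below in 4.88%, together 8.13%. The same 4 members had an unadjusted limma p under 0.05 with HFD higher, as did 1.32% of all tested genes, while 2.3% had such a p with HFD lower, together 3.62% or 415 genes. After Benjamini-Hochberg adjustment in limma at a threshold of 0.05, the count was 0 for the members and 0 for the whole table (0%). The members were chosen with this contrast known, so nothing is read from these counts.

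Zbtb16 encodes PLZF, a zinc finger repressor of transcription. Its values were 3.66, 4.46 and 7.22 FPKM in HFD libraries 1 to 3 and 0.712, 0.855 and 1.91 FPKM in NC libraries 1 to 3. The lowest HFD library was thus 1.75 FPKM above the highest NC library. The mean was 5.11 ± 1.87 FPKM on HFD and 1.16 ± 0.655 FPKM on NC (SD, n = 3 each), a ratio of means of 4.41. Because the pseudocount of 1 is close to the NC level, the log2 difference of 1.5 (SE 0.28) understates that ratio, and with a pseudocount of 0.1 it was 2.11. On the scale used here it was the largest positive difference of the 11456 genes. It stood at 1.67 without HFD 1, the library with missing mitochondrial transcripts, and at 1.27 without HFD 3, where it was highest.

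Fkbp5 encodes FKBP51, a co-chaperone of Hsp90 that lowers the affinity of the receptor for its hormone and is induced by it, which makes it a feedback inhibitor. It was at 4.55, 4.66 and 6.35 FPKM in HFD libraries 1 to 3 and at 3.05, 1.38 and 2.02 FPKM in NC libraries 1 to 3. HFD 1 and HFD 2 lay close together and below HFD 3, and NC 1 was above NC 3 and NC 2. Means were 5.19 ± 1.01 FPKM on HFD and 2.15 ± 0.842 FPKM on NC (SD, n = 3 each), with a difference of 0.996 (SE 0.25). The related gene Fkbp4 encodes FKBP52, which competes with FKBP51 for the receptor complex and promotes its activity. Fkbp4 was at 74.0, 62.4 and 112 FPKM on HFD and 95.7, 134 and 75.7 FPKM on NC, overlapping between diets (difference -0.30, SE 0.27). The ratio of Fkbp4 to Fkbp5 within a library, which does not depend on how libraries are scaled, was 16.2, 13.4 and 17.7 on HFD and 31.4, 96.9 and 37.4 on NC, without overlap. It was not tested, since Fkbp5, on whose values the set was chosen, is its denominator. Of 5 such ratios computed, this one and Mt1 over Mt2 did not overlap between diets. Overlap was seen for Tsc22d1 over Tsc22d3 (1.55 ± 0.524 on HFD, 1.79 ± 0.452 on NC), Nr3c1 over Nr3c2 (3.15 ± 0.554 on HFD, 3.49 ± 1.33 on NC) and Cebpb over Cebpd (5.21 ± 0.786 on HFD, 6.58 ± 1.82 on NC; SD, n = 3 each).

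Fam107a encodes an actin-binding protein that is raised by stress and glucocorticoids in brain. It was at 3.71, 3.71 and 4.70 FPKM in HFD libraries 1 to 3 and at 1.45, 0.452 and 1.53 FPKM in NC libraries 1 to 3. The lowest HFD library was 2.18 FPKM above the highest NC library. Its mean was 4.04 ± 0.570 FPKM on HFD and 1.15 ± 0.601 FPKM on NC (SD, n = 3 each), a ratio of 3.53 and a log2 difference of 1.27 (SE 0.26), or 1.88 with a pseudocount of 0.1.

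Sgk1 encodes a kinase that raises the activity of ion channels and transporters. It was at 45.4, 61.3 and 43.2 FPKM in HFD libraries 1 to 3 and at 40.7, 21.8 and 20.3 FPKM in NC libraries 1 to 3. The separation rested on a narrow margin, since HFD 3 was 2.48 FPKM above NC 1. Means were 49.997 ± 9.89 FPKM on HFD and 27.6 ± 11.4 FPKM on NC (SD, n = 3 each), and the difference was 0.89 (SE 0.27), or 1.2 without NC 1. With median-of-ratios rescaling of the libraries Sgk1 overlapped between diets and its difference was 0.90, while Tsc22d3 stood apart. With the other rescalings both genes stood apart. Its paralogue Sgk3 was at 3.11 ± 1.11 FPKM on HFD and 2.70 ± 0.951 FPKM on NC (SD, n = 3 each).

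**Figure D1:**
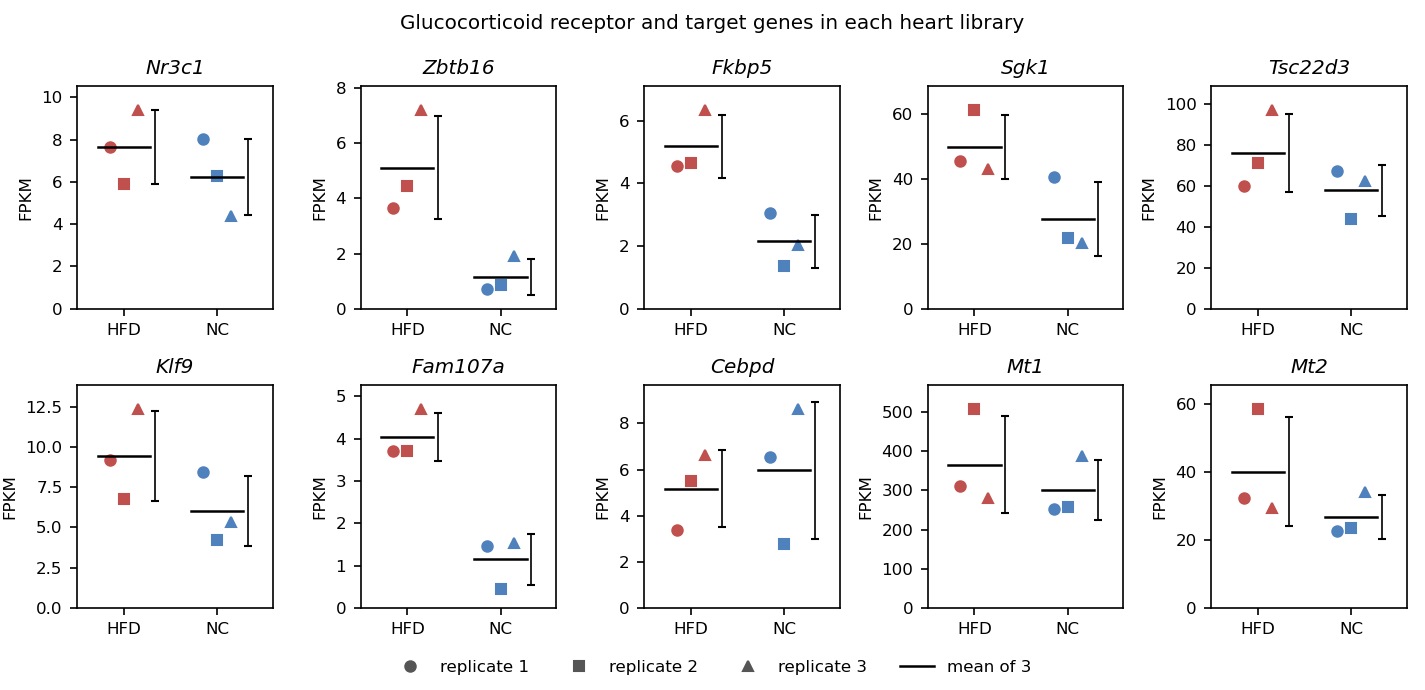
FPKM (y axes, linear, from 0) of the receptor gene and 9 target genes in 3 HFD (red, left) and 3 NC (blue, right) heart libraries. Symbols are replicate numbers, horizontal lines are means and vertical bars are SD over 3 libraries. HFD values lie wholly above NC values for Zbtb16, Fkbp5, Sgk1 and Fam107a and overlap for the other 6 genes.

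Tsc22d3 and Klf9 were higher on average on HFD, but the diets overlapped in both. Tsc22d3 encodes GILZ, a leucine zipper protein that carries part of the anti-inflammatory action of glucocorticoids. It was at 59.7, 71.4 and 97.2 FPKM in HFD libraries 1 to 3 and at 67.5, 43.6 and 62.4 FPKM in NC libraries 1 to 3. HFD 1 was below NC 1 and NC 3. This overlap was in FPKM as listed, and in all 3 rescalings of the libraries Tsc22d3 on HFD lay wholly above NC. The difference of 0.39 (SE 0.24) was 0.197 without HFD 3 and 0.199 without NC 2. Its paralogue Tsc22d4 lay the other way, at 37.6, 64.0 and 62.5 FPKM on HFD and 65.2, 75.2 and 108 FPKM on NC, with the highest HFD value just under the lowest NC value (difference -0.59, SE 0.26). Tsc22d1 was at 112 ± 15.2 FPKM on HFD and 100.4 ± 12.6 FPKM on NC (SD, n = 3 each).

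Klf9, a zinc finger transcription factor of the Krüppel-like family, was at 9.22, 6.77 and 12.4 FPKM in HFD libraries 1 to 3 and at 8.45, 4.23 and 5.35 FPKM in NC libraries 1 to 3. NC 1 was above HFD 2. The difference was 0.59 (SE 0.28). The family member Klf15, also a glucocorticoid target and a regulator of cardiac metabolism, was at 11.6, 15.8 and 26.0 FPKM on HFD and 14.5, 13.1 and 14.0 FPKM on NC, so its mean on HFD rested on HFD 3 (difference 0.27, SE 0.27).

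Cebpd, whose product C/EBPδ is a transcription factor of inflammation and of early fat cell formation, did not separate the diets. It was at 3.37, 5.52 and 6.64 FPKM in HFD libraries 1 to 3 and at 6.54, 2.76 and 8.62 FPKM in NC libraries 1 to 3. Its lowest values were in HFD 1 among the HFD libraries and in NC 2 among the NC libraries. Summed over 7 adipocyte markers, those were also the lowest libraries of their diet, with 1.11, 13.7 and 55.9 FPKM in HFD libraries 1 to 3 and 67.3, 3.74 and 55.7 FPKM in NC libraries 1 to 3. Retn was at 0 in HFD 1, Lep in 3 libraries and Ucp1 in 4, and 0 of the 5 tested adipocyte markers had a positive difference. The part of fat cells in the Cebpd values was not tested. The difference of -0.11 (SE 0.34) turned to 0.12 without HFD 1 and to 0.18 without NC 3. Its relative Cebpb was at 15.2, 33.5 and 33.5 FPKM on HFD and 30.4, 22.9 and 58.9 FPKM on NC, with HFD 1 and NC 2 again lowest, and Cebpa averaged 2.53 ± 1.66 FPKM on HFD and 3.30 ± 1.27 FPKM on NC (SD, n = 3 each).

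**Figure D2:**
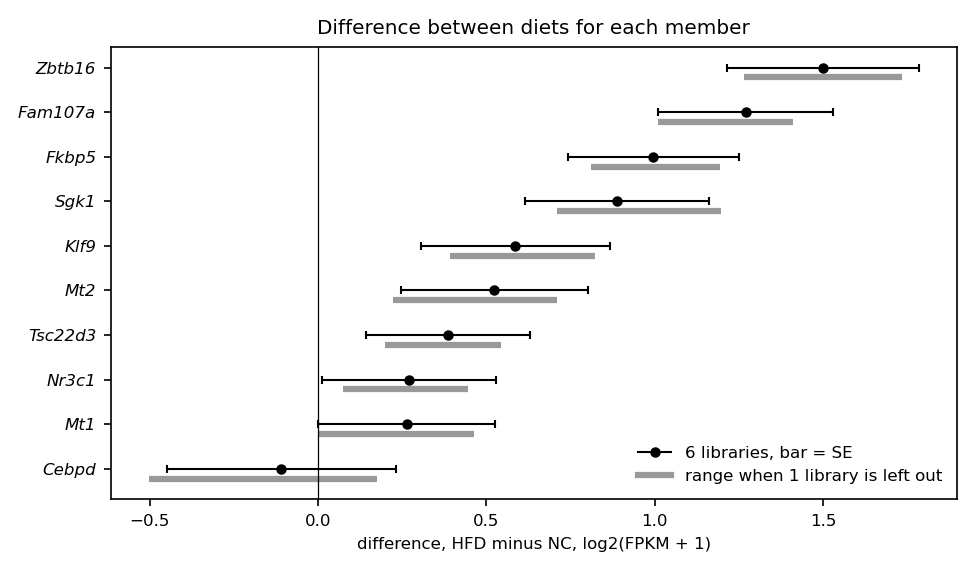
Difference between diets, HFD minus NC on the log2(FPKM + 1) scale (x axis), for each member (y axis). Points are fitted values from 6 libraries with SE bars, and grey bars span the values when 1 library is left out. Zbtb16 at 1.5 is the highest, and the grey bar crosses 0 for Cebpd alone.

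The metallothionein genes Mt1 and Mt2 encode small cysteine-rich proteins that bind zinc and copper and are induced by metals as well as by glucocorticoids. Mt1 was at 311, 507 and 279 FPKM in HFD libraries 1 to 3 and at 253, 259 and 389 FPKM in NC libraries 1 to 3. Mt2 was at 32.5, 58.6 and 29.4 FPKM in HFD libraries 1 to 3 and at 22.6, 23.7 and 34.1 FPKM in NC libraries 1 to 3. In both genes HFD 2 was far the highest and NC 3 was next, above HFD 1 and HFD 3. The difference was 0.26 (SE 0.26) for Mt1 and 0.52 (SE 0.28) for Mt2, and without HFD 2 these shrank to 0.003 for Mt1 and 0.222 for Mt2. Globin and other erythroid transcripts, a sign of blood in the tissue, were also highest in HFD 2, at a summed 13371 FPKM against 7428 FPKM in HFD 1 and 1241 FPKM in HFD 3. They were low in NC 3, at 2025 FPKM against 5742 FPKM in NC 1 and 8294 FPKM in NC 2, and their part in the metallothionein values was not tested.

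Although each gene overlapped between diets, their ratio did not. Mt1 over Mt2 was 9.56, 8.65 and 9.5 in HFD libraries 1 to 3 and 11.2, 10.9 and 11.4 in NC libraries 1 to 3. It averaged 9.24 ± 0.506 on HFD and 11.2 ± 0.238 on NC (SD, n = 3 each), and as a ratio within a library it does not depend on library scaling. This ratio was noticed after the values were seen and was not tested. Reads that match both genes could be split between them by the counting, whose treatment of such reads was not found in the labels.

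**Figure D3:**
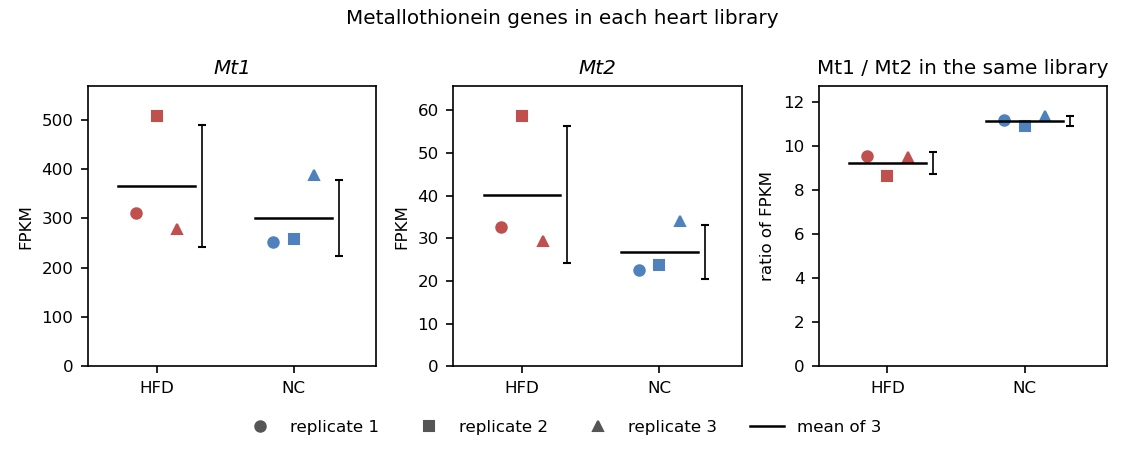
FPKM of Mt1 and Mt2 and their ratio (y axes, linear, from 0) in 3 HFD (red, left) and 3 NC (blue, right) heart libraries, with means as horizontal lines and SD as vertical bars. The gene levels overlap between diets, with HFD 2 highest at 507 FPKM for Mt1, while the ratios are 8.65 to 9.56 on HFD and 10.9 to 11.4 on NC.

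Genes around the metallothioneins in zinc handling were given whatever their values, from a list chosen with earlier results of these data known. Slc30a1, the zinc exporter that MTF1 induces, was at 3.96, 2.997 and 3.13 FPKM in HFD libraries 1 to 3 and at 2.39, 2.04 and 1.68 FPKM in NC libraries 1 to 3, without overlap (difference 0.52, SE 0.22). Mtf1 itself was at 1.57 ± 0.527 FPKM on HFD and 1.45 ± 0.192 FPKM on NC (SD, n = 3 each). Mt3, the metallothionein best known from brain, was at 0.576, 2.37 and 7.14 FPKM on HFD and 5.03, 1.69 and 14.98 FPKM on NC. Its highest library was NC 3, which also had the highest atrial markers. Of 11 tested genes of the metal list 0 passed in either direction, 7 were above 0 and 4 below, and the median difference was 0.051, beside -0.019 over all tested genes.

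Across the 10 members, the libraries in which values were extreme were not spread evenly. The counts come from values known when the set was chosen, so nothing is read from them about the diets. The highest value was in HFD 3 for 6 members, Nr3c1, Zbtb16, Fkbp5, Tsc22d3, Klf9 and Fam107a, and in HFD 2 for Sgk1, Mt1 and Mt2, leaving Cebpd with its highest in NC 3. HFD 3 was also the library in which the most tested genes were highest, 34.5%, against 17.7% for HFD 2. The lowest value was in NC 2 for 5 members, in NC 1 for 3 and in NC 3 for 2, and no member was lowest in an HFD library, while HFD 1 was the lowest library for 33.1% of all tested genes and NC 2 for 20.8%. In NC 2 all 9 targets were below their own mean over the libraries, and their mean deviation there was -0.71 on the log2 scale. It was 0.14, 0.43 and 0.48 in HFD 1 to HFD 3, and -0.19 and -0.16 in NC 1 and NC 3. NC 2 had the lowest atrial markers and the second lowest adipocyte markers of the 6 libraries, and HFD 3 the highest structural RNAs. Their part in these values was not tested.

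**Figure D4:**
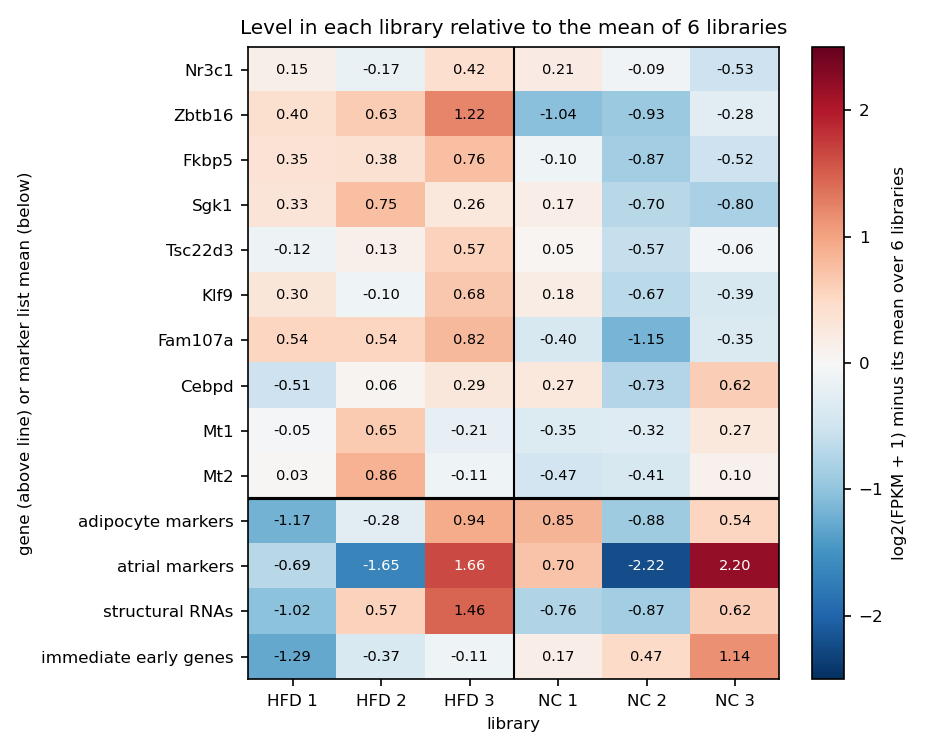
Level of each member (rows above the line) and mean of 4 marker lists (rows below) in each library (columns), as log2(FPKM + 1) minus its mean over 6 libraries (colour and printed value). NC 2 is negative for all 10 members, and HFD 3 is positive for all but Mt1 and Mt2.

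The genes whose pattern over the 6 libraries was most like that of a member were found by the Euclidean distance between centred log2(FPKM + 1) profiles. These profiles hold the diet difference that was known when the set was chosen. Closeness, here and for Mt2 below, is thus a description, and nothing is read from it about shared regulation. Among the genes nearest to Zbtb16 were Per2 (distance 0.90), Per3 (0.96), Wee1 (0.99) and Fmo2 (1.01). Per2 and Per3 are clock repressor genes and Wee1 is a cell cycle kinase gene under clock control. Among the members, Fam107a was nearest to Zbtb16 (0.81), followed by Fkbp5 (1.11). Nearest to Fkbp5 were Mylip (0.30), Wee1 (0.50), Csrnp1 (0.52), the clock repressor gene Cry1 (0.54) and Fbp2 (0.57), with Fam107a at rank 3 (0.51) and Klf9 at rank 13 (0.62) when members were counted. By distance from Fkbp5 the receptor gene ranked 972nd, before Zbtb16 (1213th), Mt2 (4386th), Mt1 (6279th) and Cebpd (8113th). The other targets, Sgk1 (58th) and Tsc22d3 (96th) among them, were nearer to Fkbp5 than the receptor gene. From Zbtb16 the receptor gene ranked 3258th, with Cebpd (7113th) farther and the other targets nearer.

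Mt2 had other neighbours. Among the genes nearest to it were Crybb3 (0.26), the Notch ligand gene Jag2 (0.27), Uba7 (0.29) and Snhg20 (0.29), and Mt1 was 10th (0.34). Jag2 shared with Mt2 a highest value in HFD 2, at 12.3 FPKM against 5.58 in HFD 1 and 5.39 in HFD 3, and 4.32 to 5.79 on NC. Fkbp5 ranked 6848th and Zbtb16 9986th by distance from Mt2. 

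Hormone supply and the receptor complex were given from lists fixed with earlier results of these data known. Nr3c2, the mineralocorticoid receptor gene, whose product also binds corticosterone, was at 2.13, 1.76 and 3.72 FPKM on HFD and 2.01, 1.39 and 2.21 FPKM on NC (difference 0.27, SE 0.26). Hsd11b1, whose product regenerates active corticosterone in the cell, was at 7.33, 4.47 and 4.96 FPKM on HFD and 7.17, 6.18 and 2.52 FPKM on NC (difference 0.13, SE 0.32). Hsd11b2, whose product inactivates the hormone, stayed at or under 0.14 FPKM in all libraries, and Serpina6, the gene of the carrier globulin made in liver, was listed at 0 in all 6. The diets overlapped for both receptors and for Hsd11b1.

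In all chaperones of the receptor complex the diets overlapped, as in all but 8.13% of all tested genes. Of 11 tested genes 0 passed, 4 were above 0 and 7 below, and the median difference was -0.036. Hsp90ab1 was at 224 ± 84.6 FPKM on HFD and 219 ± 32.4 FPKM on NC, Hsp90aa1 at 28.8 ± 12.97 FPKM on HFD and 27.6 ± 7.40 FPKM on NC, and the p23 gene Ptges3 at 35.9 ± 8.97 FPKM on HFD and 36.1 ± 1.203 FPKM on NC (SD, n = 3 each). Among 12 coregulators 0 passed and the median difference was 0.078. The coactivator gene Ncoa2 was at 2.77 ± 0.518 FPKM on HFD and 2.58 ± 0.733 FPKM on NC (SD, n = 3 each). In 2 of the 12 coregulators all HFD values lay above all NC values, beside 3.25% of all tested genes. They were the acetyltransferase gene Ep300 (difference 0.44, SE 0.24) and Tbl1xr1 (0.66, SE 0.24), singled out after their values were seen.

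Other genes known to be induced by glucocorticoids did not share the direction of Zbtb16, Fkbp5, Fam107a and Sgk1 throughout. Of 24 tested genes 0 passed in either direction, 15 were above 0 and 9 below, and the median difference was 0.096, against 0.59 for the 9 chosen targets and -0.019 for all tested genes. Above 0 stood the fuel-switch kinase gene Pdk4 (0.61, SE 0.43), the mTOR inhibitor gene Ddit4 (0.56, SE 0.33), the clock repressor gene Per1 (0.43, SE 0.33), the NF-κB inhibitor gene Nfkbia (0.26, SE 0.26), the lipase inhibitor gene Angptl4 (0.28, SE 0.41) and the cell cycle inhibitor gene Cdkn1a (0.17, SE 0.40). Per1 was at 9.70, 20.3 and 20.2 FPKM on HFD and 9.78, 8.44 and 18.3 FPKM on NC, so HFD 1 was below NC 1. Ddit4 was at 25.0, 43.9 and 27.8 FPKM on HFD and 36.8, 15.1 and 16.2 FPKM on NC, and like Sgk1 it was higher in NC 1 than in NC 2 and NC 3. Of the 24, 2 had HFD wholly above NC, the glutamine synthetase gene Glul and the phagocytic receptor gene Mertk, and 1 wholly below, Zfp36, beside 3.25% of all tested genes above and 4.88% below.

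Below 0 stood Dusp1 (-0.46, SE 0.27), which encodes a phosphatase that shuts off MAP kinases, the transcriptional repressor gene Bcl6 (-0.28, SE 0.23), Errfi1 (-0.11, SE 0.34) and Lcn2 (-0.03, SE 0.27). Dusp1 was at 42.8, 72.7 and 77.3 FPKM on HFD and 64.8, 87.8 and 112 FPKM on NC. Zfp36, which encodes an mRNA-destabilising protein, was at 7.71, 13.6 and 13.5 FPKM on HFD and 16.2, 16.1 and 29.4 FPKM on NC (difference -0.76, SE 0.29, singled out after its values were seen). Dusp1 and Zfp36 are also induced within minutes by growth factors and stress. In all 8 immediate early genes listed as markers, the difference was below 0, and their mean log2 level was 2.46, 3.37 and 3.63 in HFD libraries 1 to 3 and 3.91, 4.22 and 4.88 in NC libraries 1 to 3. The part of that response in the Dusp1 and Zfp36 values was not tested. Hif3a was at 0.160, 0.041 and 0.394 FPKM on HFD and 0.203, 0.120 and 0.357 FPKM on NC, under the minimum for the test.

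Inflammatory genes that glucocorticoids repress were mostly near the limit of the table. Of 13, 6 reached a mean of 1 FPKM, 0 passed, 4 were above 0 and 2 below, and the median difference was 0.089. The 7 genes below that minimum all had a lower mean on HFD, so that 9 of the 13 had a lower mean on HFD and 4 a higher one. All HFD values were below all NC values for 3 of the 13, the chemokine gene Ccl2 (difference -0.44) and, under the minimum, the cytokine gene Il6 and the protease gene Mmp9. Il6 averaged 0.051 FPKM on HFD and 0.186 FPKM on NC, and Mmp9 0.092 FPKM on HFD and 0.505 FPKM on NC. Over all tested genes, HFD lay wholly below NC in 4.88%, and the difference was above 0 in 46.9%. No share was computed over genes under the minimum, so these counts have no matching background and nothing is read from them. Macrophage markers were also lower on HFD, as given above, and their part in these values was not tested. The median over the 28 tested paralogues of the members was 0.11, with 17 above 0, 11 below and 0 passing. Fam107b, the paralogue of Fam107a, was at 2.55 ± 1.61 FPKM on HFD and 1.93 ± 0.607 FPKM on NC (SD, n = 3 each). Over the 93 different tested genes of all 7 lists, 0 passed, 5 had a positive and 4 a negative difference with an unadjusted p under 0.05, beside 1.32% and 2.3% of all tested genes. HFD was wholly above NC in 8 of the 93 and wholly below in 3, beside 3.25% and 4.88% of all tested genes. All 7 lists were chosen with earlier results of these data known, so nothing is read from these counts.

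**Figure D5:**
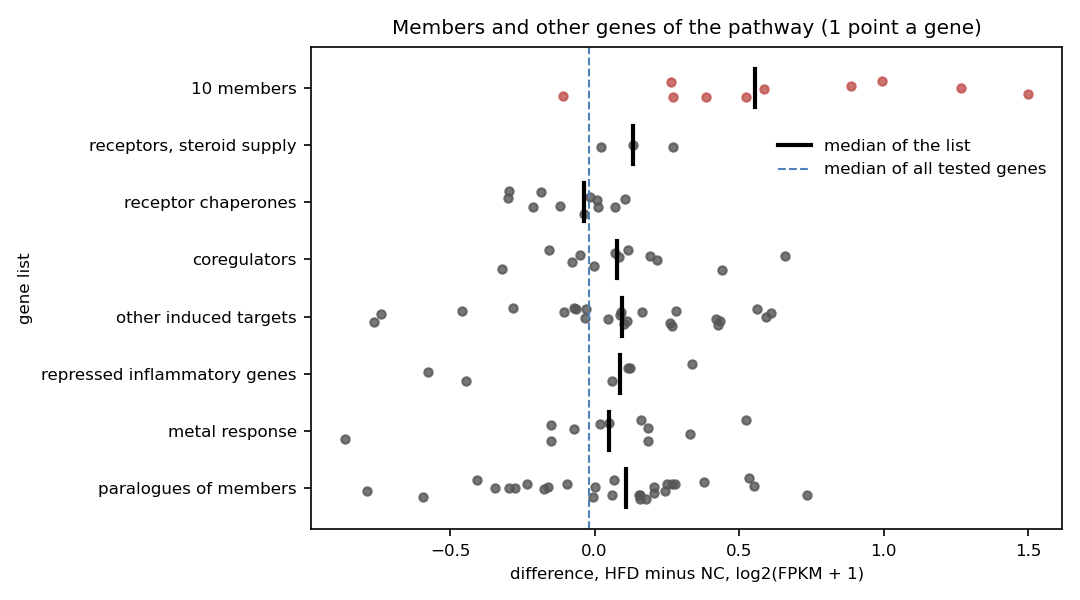
Difference between diets, HFD minus NC on the log2(FPKM + 1) scale (x axis), for the 10 members (red) and the tested genes of 7 companion lists (grey), 1 point a gene, with list medians as black lines and the median of all tested genes as a dashed line. Medians of the companion lists lie between -0.036 and 0.13, and the median of the members, which were chosen with these values known, is 0.55.

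Positions of the members are from GENCODE M21 on mm10, which the processing notes name as build. Zbtb16 (ENSMUSG00000066687) lies on chromosome 9 from 48654297 to 48836222, Fkbp5 (ENSMUSG00000024222) on chromosome 17 from 28399094 to 28517527, and Fam107a (ENSMUSG00000021750) on chromosome 14 from 8296274 to 8318023, each on the minus strand. On chromosome 10, Sgk1 (ENSMUSG00000019970) spans 21882184 to 21999903 of the plus strand, Tsc22d3 (ENSMUSG00000031431) on the X chromosome from 140539528 to 140600659 on the minus strand and Klf9 (ENSMUSG00000033863) on chromosome 19, plus strand, from 23141226 to 23168134. Mt2 (ENSMUSG00000031762, chromosome 8 from 94172664 to 94173568) and Mt1 (ENSMUSG00000031765, from 94179082 to 94180327) are neighbours on the plus strand, 5513 bases apart. On chromosome 16, Cebpd (ENSMUSG00000071637) spans 15887286 to 15891031 of the plus strand. Exons of Cebpd overlap those of Spidr, and exons of Mt2 those of Gm45774, on the opposite strand. Use of strand in the counting was not found in the labels, and without it a read from either gene of such a pair looks the same.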

How the data were processed

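The deposited table holds FPKM values per gene and library, which the authors computed. Which program wrote FPKM, how deep the libraries were and whether strand was used: not given in the sources used here. Named without roles in the submitters' processing notes are the build mm10 and the tools HISAT2 2.2.1, HTSeq 0.13.5, DESeq2 1.18.1 with R 3.4.1, Trimmomatic 0.38 and FastQC 0.11.9. Per the labels' protocols, total RNA was taken with Trizol and made into libraries with a VAHTS mRNA-seq kit. Symbols were matched by identifier for 23718 of 23808 genes. Steps of 1 read were looked for among genes under 0.3 FPKM: 2.50 to 5.32% of ratios to NC 1 lay within 0.02 (log2) of the commonest one, and no counts were recovered.

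HFD was set against NC on log2(FPKM + 1) by limma 3.58.1 (R 4.3.3), for genes whose mean reached 1 FPKM (eBayes with a trend, two-sided, Benjamini-Hochberg over 11456 genes, threshold 0.05), without covariates, after a check on simulated data. The members and lists were chosen with earlier results of these data known. Named are all members, a fixed panel of 28 companion genes whatever their values, and the 5 genes nearest in profile to Zbtb16, Fkbp5 and Mt2, leaving out predicted models and some genes that are not reported here. Alternatives were 2 pseudocounts, 2 filters, 3 rescalings, 2 eBayes options, a replicate block and each library left out, and, chosen after seeing the data, the block without the 5 genes listed at 0 in HFD 1 alone. Plots used matplotlib 3.10.9 (Python 3.11.15).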

Additional observations from a re-analysis of the deposited data

How the results depend on the processing

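Over 17 alternative settings the 10 members gave 167 values. Of these, 159 kept their direction and their side of the threshold, and 2 turned, both for Cebpd, whose difference of -0.11 was 0.121 without HFD 1 and 0.175 without NC 3, and at the other end -0.502 without NC 2. The cause was not tested. The number of genes past an adjusted p of 0.05 (limma), 0 with all libraries, was 0 to 1 when 1 library was left out, the 1 being the predicted gene Gm36956 without NC 2, and 73 with the replicate number as a block. Under that block the 5 highly expressed genes listed at 0 in HFD 1 alone were all called and were among the 6 genes with the smallest p, led by Gm28437, listed at 0 in HFD 1, HFD 2 and NC 2. Without the 5, a fit chosen after seeing the data, 70 were called, and the same 3 members passed. With all genes kept, 73 of 11456 genes passed in limma, among them Zbtb16 (adjusted p = 1.28e-05), Fam107a (adjusted p = 6.62e-04) and Fkbp5 (adjusted p = 0.0402). Over the other settings the adjusted p of these 3 members stayed above the threshold. Under the block the SE was 0.251 to 0.273 over the 10 members, against 0.24 to 0.34 in the main fit. The p there thus hardly followed the spread of each gene. The members were chosen with this contrast known, so their p-values support nothing. The labels do not say that the numbers pair the libraries. Deviations of same-numbered libraries from their diet means correlated at 0.193, 0.0864 and 0.275 across genes, not all over 0.1, and 3 of 6 libraries correlated best with their own number, so the numbers were not taken as pairs. No companion gene passed in any setting. The median difference of the 9 targets, 0.59, was 0.449 without NC 2 and 0.824 without NC 1. Members with HFD wholly above NC, 4 with all libraries, were 4 to 6 when 1 library was left out. With fewer libraries that count can only stay or rise, and the share of all tested genes was not computed there. With median-of-ratios rescaling Tsc22d3 stood apart and Sgk1 did not. With each of the other rescalings 5 members stood apart, Sgk1 and Tsc22d3 both among them. With a minimum mean of 5 FPKM, Zbtb16, Fkbp5 and Fam107a were not tested. Rescalings moved the median of all genes from -0.019 to at most 0.071. Depth is unknown, and genes near 1 FPKM, such as Zbtb16 and Fam107a on NC, depend most on the pseudocount.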
